A study of Mus musculus with 74 samples.

Results

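The 8 genes of apoptosis described here were followed through sorted immune cells: the death ligands Fasl and Tnfsf10, the receptors Fas, Tnfrsf10b and Tnfrsf1a, the inhibitor Cflar, and the BCL-2 family members Bcl2 and Bcl2l11. They were taken by symbol and are 8 of the 49480 gene symbols of the deposited table of raw read counts. RNA was measured by Smart-seq2, which makes full-length cDNA from few cells, in 74 libraries of 1000 double-sorted cells each. All mice were C57BL/6J, aged 12 or 3 months, and all bore subcutaneous tumors of MC38, a mouse colon carcinoma line, for 10 days, so the spleens too came from tumor-bearing mice as the labels give it. Cells were sorted from tumor and from spleen as CD8 T cells (TCRb+ CD8+), conventional CD4 T cells (TCRb+ CD4+ CD25-), regulatory T cells (TCRb+ CD4+ CD25+), dendritic cells (CD11b+ CD11c+ MHCII+) and macrophages (CD11b+ F4/80+), all within CD45+ cells. The regulatory sort rests on surface CD25 and not on Foxp3, and the dendritic cell gate takes the CD11b+ kind only. With both ages this gave 20 groups. Most held 4 libraries, while the 12-month spleen, 3-month spleen and 12-month tumor dendritic cells and the 3-month spleen conventional CD4 cells held 3 each and the 3-month tumor conventional CD4 cells held 2. The libraries came from female mice except replicate 1 of each dendritic cell group, 4 libraries in all, which came from males. Nothing in the labels ties replicate libraries to different mice, so p-values measure only the spread between these libraries.

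FASL on a killer cell binds FAS on its target, TNFSF10 (TRAIL) binds TNFRSF10B, and TNF binds TNFRSF1A, and each engaged receptor can assemble a complex that activates caspase-8. CFLAR (c-FLIP) resembles caspase-8 and blocks its activation in that complex. BCL-2 keeps mitochondria from releasing cytochrome c, and the BH3-only protein BIM, the product of Bcl2l11, antagonises it. In T cells FASL is a weapon of activated effectors, and FAS and BIM both take part in removing activated T cells after a response.

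Library totals ran from 1652812 to 9115858 counts, with a median of 4679409.5. Levels are given in CPM, counts scaled to the library total, with the SD over libraries. The T cell sorts carried their markers. The 7 T cell genes summed to 3598 to 7350 CPM in T cell libraries and to 2.84 to 262 CPM in myeloid libraries. The 2 CD8 genes summed to 2631 to 4779 CPM in CD8 libraries and at most 291 CPM in others. The 4 regulatory T cell genes summed to 2949 to 5129 CPM in the regulatory sorts. The same 4 genes reached 188 to 2580 CPM in the conventional CD4 sorts. Macrophage genes, 8 in the list, summed to 20670 and 17260 CPM in the tumor dendritic cell libraries numbered 2 of the 12-month and 3-month mice, and 3454 to 6892 CPM in the other 5. Ribosomal protein genes took 8.84% and 11.9% of the counts in 3-month spleen conventional CD4 libraries 1 and 4 and at most 4.64% in the other spleen conventional CD4 libraries. Over whole sorts these genes took less of the counts in tumor than in spleen T cells, without overlap: 2.96% to 3.93% in tumor against 4.45% to 6.7% in spleen CD8, 1.84% to 3.53% in tumor against 3.91% to 11.9% in spleen conventional CD4, and 0.880% to 1.68% in tumor against 2.41% to 3.33% in spleen regulatory T cells. Neutrophil genes, 9 in the list, amounted to 69.7 to 235.5 CPM in tumor regulatory T cells against 1.30 to 6.24 CPM in those of the spleen, and to 28.4 to 838 CPM in tumor macrophages and 4146 to 39850 CPM in spleen macrophages. In most spleen macrophage libraries they summed to more than the macrophage genes, so levels of that sort are not those of macrophages alone. B cell genes, 8 in the list, summed to 11.3 to 35.3 CPM in tumor dendritic cells and 501 to 3139 CPM in spleen dendritic cells. Mitochondrial genes took 0.865% to 2.01% of the counts in regulatory T cells and 0.817% to 1.47% in macrophages. They took 5.22% to 11.2% in CD8, 5.06% to 10.9% in conventional CD4 and 3.16% to 9.39% in dendritic cells. Between sorts, this difference in libraries cannot be told apart from cell type. The part of all these signs in the results below was not tested, except where a value without the named libraries is given.

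Tumor libraries were set against spleen libraries within each cell type, as the mean over both ages, to ask how the 8 genes differ between immune cells of a tumor and of a lymphoid organ. Immune cells of the tumor differed from those of the spleen in both ligands and in Fas: Tnfsf10 rose in all 5 cell types, Fasl in the 3 T cell types, and Fas fell in 4 of 5. Bcl2l11 rose in 4 types, Cflar in 3 and Tnfrsf1a in 2, Bcl2 fell in 3, and Tnfrsf10b rose in 1 and fell in 1. Here a gene rose or fell when edgeR's quasi-likelihood test gave a Benjamini-Hochberg adjusted p under 0.05 over all genes tested. Of 40 pairs of gene and cell type, 38 had enough counts to be tested, 18 rose and 8 fell. Fasl and Tnfrsf10b in macrophages were too low for a test.

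By cell type, 3 of 8 members rose and 1 fell in CD8 T cells, where 22.5% of 13285 genes rose and 19.6% fell (42.1% in all). In conventional CD4 T cells 4 of 8 rose and 2 fell, where 16% of 14661 genes rose and 11.2% fell (27.2% in all). In regulatory T cells 5 of 8 rose and 2 fell, where 25.9% of 13345 genes rose and 27.6% fell (53.5% in all). In dendritic cells 3 of 8 rose and 1 fell, where 24% of 13981 genes rose and 23.3% fell (47.3% in all). In macrophages 3 of 6 tested rose and 2 fell, where 23.9% of 12876 genes rose and 27.8% fell (51.7% in all). The share of members called was near that of all genes in CD8 T cells and dendritic cells, so the counts there say nothing particular about the members. The median log2 fold change of the members was 0.22 in CD8, 0.58 in conventional CD4 and 0.76 in regulatory T cells, 0.09 in dendritic cells and 0.24 in macrophages. Over all genes tested it was -0.01, 0.04, -0.05, -0.05 and -0.06 in the same order. Without regard to the test, all tumor libraries lay above all spleen libraries in 12 of the 40 pairs and below them in 5, and the ranges overlapped in 23.

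**Figure D1:**
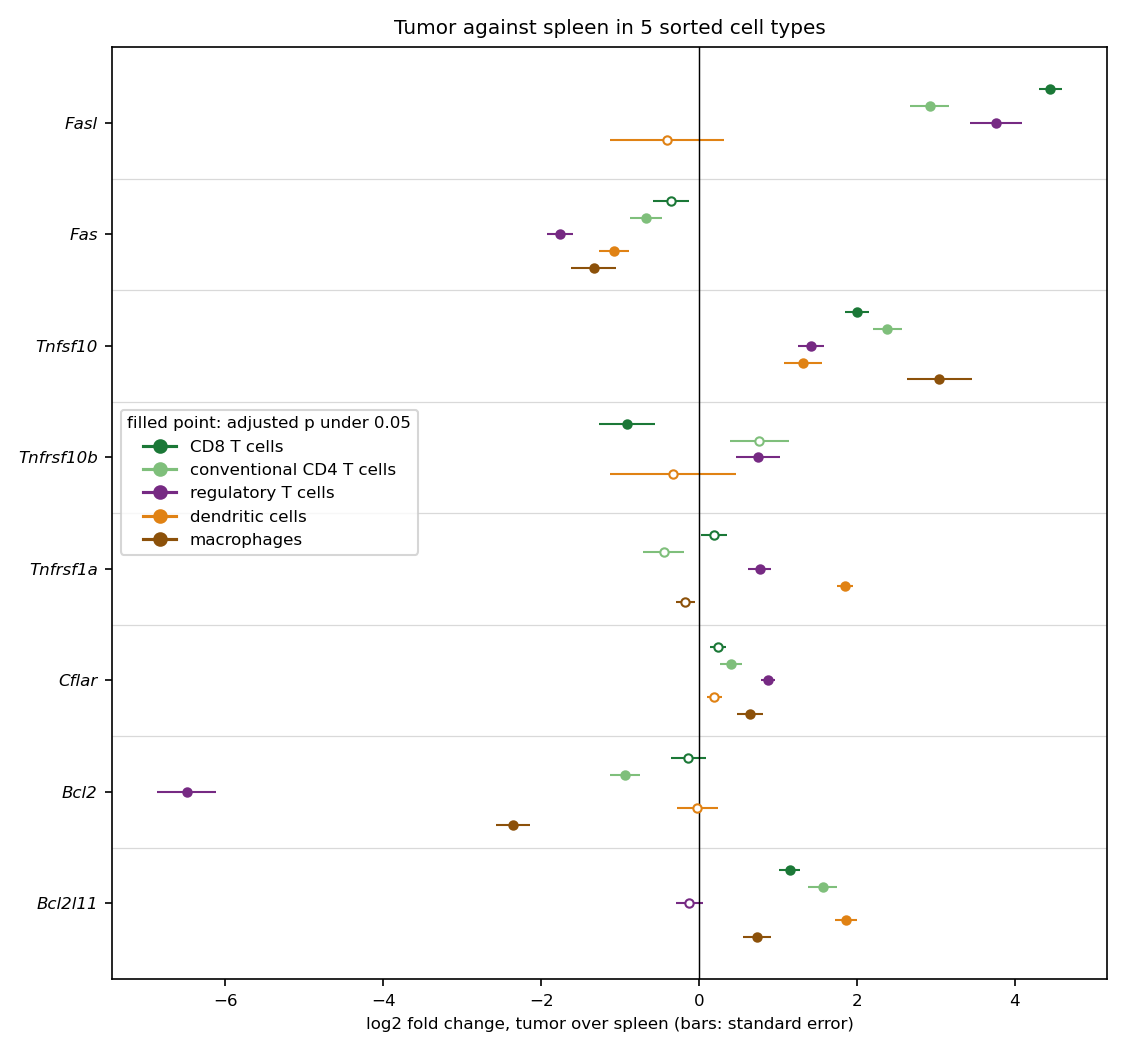
Log2 fold change of tumor over spleen libraries for the 8 genes in 5 sorted cell types, with standard errors as bars; filled points passed an adjusted p of 0.05. Tnfsf10 lies right of 0 in all 5 types, Fas left of 0 in all 5 with an open point in CD8 T cells, and the farthest point to the left is Bcl2 in regulatory T cells at -6.49.

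Fasl lies on chromosome 1 (mm10, 161780689 to 161788495, minus strand) and Tnfsf10 on chromosome 3 (27317028 to 27342427, plus strand). Because these 2 ligand genes rose together in all 3 T cell types, the stretch before each gene's start is shown, with GGAAA, the core letters bound by the T cell activation factor NFAT, and its reverse complement in capitals. The sequences are from RefSeq on GRCm38.p6, written 5′ to 3′ on the gene's strand, at chr1:161788496-161788745 for Fasl and chr3:27316827-27317027 for Tnfsf10. Bases that GENCODE places in an exon were left out, which shortened the Tnfsf10 stretch.
Fasl: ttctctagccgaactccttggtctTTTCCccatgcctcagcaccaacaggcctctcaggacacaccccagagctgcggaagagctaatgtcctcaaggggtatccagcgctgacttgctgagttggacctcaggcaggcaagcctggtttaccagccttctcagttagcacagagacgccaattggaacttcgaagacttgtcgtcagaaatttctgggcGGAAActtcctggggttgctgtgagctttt
Tnfsf10: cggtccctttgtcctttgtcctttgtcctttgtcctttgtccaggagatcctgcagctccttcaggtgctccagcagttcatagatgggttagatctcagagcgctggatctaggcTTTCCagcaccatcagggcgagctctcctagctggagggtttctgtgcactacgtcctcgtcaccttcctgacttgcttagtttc
On both strands GGAAA was found 2 times in the 250 bases of Fasl and 1 time in the 201 bases of Tnfsf10. Of 32851 promoter windows, 55.6% held it in 250 bases and 48.7% in 201 bases, so these letters are common. TTCNNNGAA, the letters of a gamma-activated site, was in neither window and in 7.02% and 5.8% of all windows of the same lengths.

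Fasl was higher in tumor than in spleen in all 3 T cell types and highest in tumor CD8 T cells. In CD8 T cells it ranged from 207 to 374 CPM with a median of 310.0 in 8 tumor libraries, and from 4.89 to 32.3 CPM with a median of 18.2 in 8 spleen libraries. In conventional CD4 T cells it ranged from 138 to 222 CPM with a median of 175 in 6 tumor libraries, and from 7.75 to 39.0 CPM with a median of 22.7 in 7 spleen libraries. In regulatory T cells it ranged from 23.4 to 79.2 CPM with a median of 48.1 in 8 tumor libraries, and from 1.56 to 8.56 CPM with a median of 2.88 in 8 spleen libraries. In none of the 3 did tumor and spleen libraries overlap. The log2 fold change was 4.45 (SE 0.14, adjusted p = 1.803e-16, edgeR) in CD8, 2.92 (SE 0.24, adjusted p = 2.644e-09, edgeR) in conventional CD4 and 3.76 (SE 0.33, adjusted p = 1.363e-08, edgeR) in regulatory T cells. NK cells also make FASL. The 5 NK cell genes of the marker list summed to 196 to 771 CPM in tumor against 28.6 to 178 CPM in spleen CD8 libraries, and their part in the Fasl result was not tested.

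In myeloid cells Fasl was near the limit of counting. Tumor dendritic cells held 0 to 10.8 CPM and spleen dendritic cells 1.93 to 12.7 CPM, and the ranges overlapped (log2 fold change -0.40, SE 0.72, adjusted p = 0.678, edgeR). Macrophages held 0 to 9.75 CPM in tumor against 0 to 4.95 CPM in spleen. In 7 myeloid libraries no Fasl read was counted, which allows a level of up to 0.469 to 0.911 CPM, as 3 counts of their totals, a limit that covers counting error only.

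Between T cell types the tumor difference itself was tested in a fit of all 12 T cell groups. For CD8 minus conventional CD4 cells 2 of 8 members were called, 1 in each direction, against 4.95% of 18066 genes (2.89% higher, 2.06% lower). For regulatory minus conventional CD4 cells 6 of 8 were called, 2 higher and 4 lower, against 9.03% (4.3% higher, 4.74% lower). Fasl rose more in CD8 than in conventional CD4 cells, by 1.55 on the log2 scale (SE 0.38, adjusted p = 0.0139, edgeR). This call was lost without 3-month tumor conventional CD4 library 3 (1.48, adjusted p = 0.0694, edgeR) and without the pair of spleen conventional CD4 libraries rich in ribosomal transcripts (1.71, adjusted p = 0.0568, edgeR). The regulatory tumor difference exceeded the conventional CD4 one by 0.89 (SE 0.41, adjusted p = 0.181, edgeR), which did not pass.

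Tnfsf10, which encodes TRAIL, was higher in tumor in every cell type. It ranged from 94.5 to 188 CPM with a median of 160 in tumor CD8 libraries and from 27.9 to 55.2 CPM with a median of 36.3 in spleen ones. Conventional CD4 cells held 89.1 to 177 CPM with a median of 107 in tumor, against 13.6 to 39.7 CPM with a median of 22.9 in spleen. Regulatory T cells held 95.6 to 187 CPM with a median of 114 in tumor, against 30.9 to 74.8 CPM with a median of 54.9 in spleen. The tumor libraries lay above the spleen libraries in all 3 types, and the log2 fold changes were 2.00 (SE 0.15, adjusted p = 2.345e-10), 2.39 (SE 0.19, adjusted p = 1.195e-10) and 1.42 (SE 0.17, adjusted p = 5.254e-07, edgeR) in the order given. The difference was smaller in regulatory than in conventional CD4 cells by 0.92 (log2 -0.92, SE 0.26, adjusted p = 0.0135, edgeR), a call lost without the ribosome-rich pair (-0.73, adjusted p = 0.194, edgeR) and without 3-month tumor conventional CD4 library 1 (-0.64, adjusted p = 0.156, edgeR).

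Myeloid cells held less Tnfsf10 but moved the same way. Macrophages held 15.8 to 59.6 CPM with a median of 23.4 in tumor, against 0.431 to 11.5 CPM with a median of 3.69 in spleen, with no overlap, log2 fold change 3.04 (SE 0.41, adjusted p = 7.289e-06, edgeR). Dendritic cells held 12.1 to 28.4 CPM with a median of 16.9 in tumor, against 4.83 to 12.3 CPM with a median of 8.89 in spleen, where a single tumor library fell within the spleen range (log2 fold change 1.32, SE 0.24, adjusted p = 0.000379, edgeR). Over the 20 groups the genes whose mean levels most resembled those of Tnfsf10 were Gbp6 (Pearson's r = 0.967 on log2(CPM + 1)), Ttc39b (0.962) and Gbp4 (0.940). Gbp4 and Gbp6 are interferon-induced GTPases of a family of close copies, whose reads the counting may share out unevenly. For Fasl they were Hmgn5 (0.946), Cxcr6 (0.944), a chemokine receptor of tissue T cells, and Atxn1 (0.931). These values describe 10714 genes that reached 10 CPM in a group, and groups of 1 cell type share their sort.

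**Figure D2:**
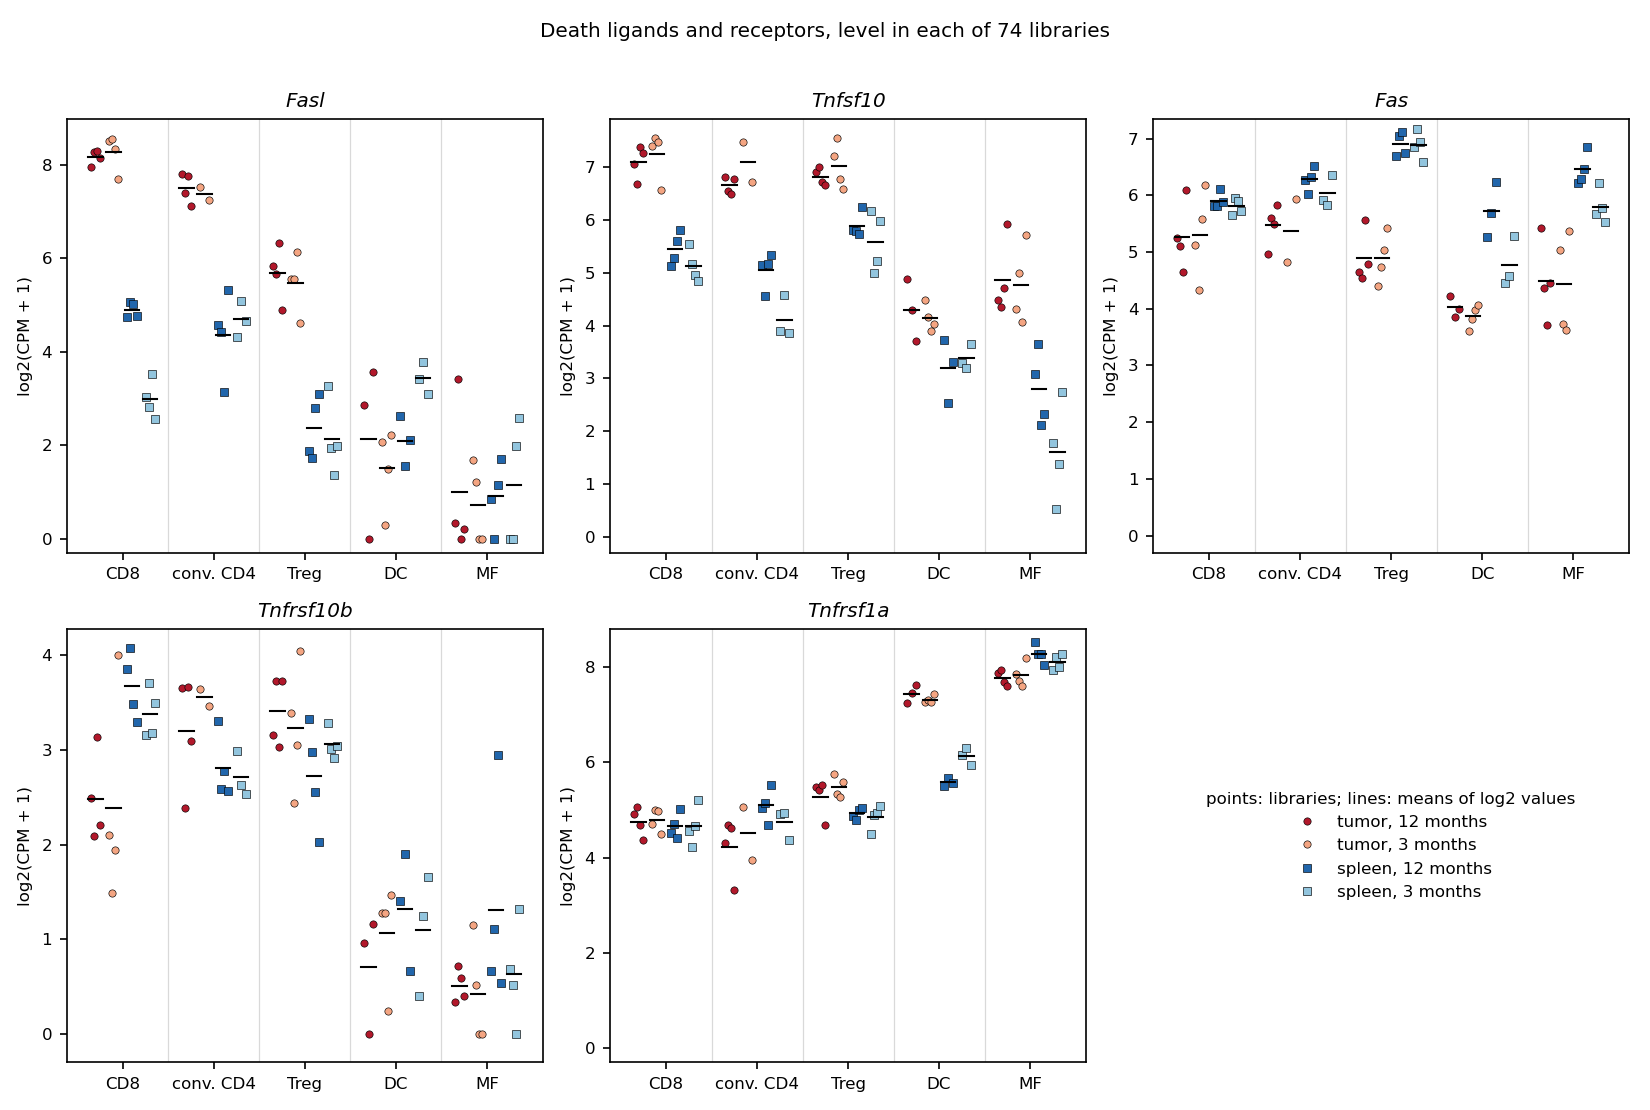
Levels of the 2 ligands and 3 receptors as log2(CPM + 1) in each of 74 libraries, by cell type, with tumor left of spleen and 12 months left of 3 months; short lines are means of the log2 values. Fasl and Tnfsf10 of tumor T cells stand above those of spleen T cells, Fas shows the opposite order in regulatory T cells, and Tnfrsf1a is highest in macrophages.

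Fas, the receptor of FASL on chromosome 19 (34290666 to 34327772, plus strand), was lower in tumor. In regulatory T cells it ranged from 19.99 to 46.2 CPM with a median of 26.1 in tumor and from 94.8 to 142 CPM with a median of 118 in spleen. The libraries did not overlap, and the log2 fold change was -1.76 (SE 0.17, adjusted p = 1.384e-08, edgeR). Dendritic cells held 11.1 to 17.6 CPM in tumor against 20.8 to 74.2 CPM in spleen (log2 fold change -1.07, SE 0.19, adjusted p = 0.000301, edgeR), again without overlap. Macrophages held 11.3 to 42.1 CPM in tumor against 45.3 to 114.5 CPM in spleen, also without overlap (log2 fold change -1.34, SE 0.28, adjusted p = 0.000708, edgeR).

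In conventional CD4 cells Fas ranged from 27.2 to 60.0 CPM in tumor, against 55.8 to 90.4 CPM in spleen, so that the highest tumor libraries reached into the spleen range. The log2 fold change was -0.67 (SE 0.20, adjusted p = 0.0158, edgeR), a call lost without 3-month tumor library 1 (-0.48, adjusted p = 0.146, edgeR) and without the ribosome-rich spleen pair (-0.51, adjusted p = 0.139, edgeR). The fall was deeper in regulatory than in conventional CD4 cells by 1.05 (log2 -1.05, SE 0.31, adjusted p = 0.0205, edgeR), a call lost without 3-month tumor conventional CD4 library 3 (-0.73, adjusted p = 0.205, edgeR). CD8 T cells spread widely, with 19.1 to 71.6 CPM in tumor against 49.5 to 67.8 CPM in spleen, and their log2 fold change of -0.36 did not pass (SE 0.23, adjusted p = 0.2195, edgeR). The 2 highest tumor CD8 libraries, at 67.2 and 71.6 CPM, were both numbered 4. Without the tumor T cell libraries of that number, a choice made after seeing the data because they had the highest mitochondrial share in most T cell groups, the log2 fold change was -0.74 (adjusted p = 0.000637, edgeR).

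Tnfrsf10b, the mouse TRAIL receptor on chromosome 14 (69767472 to 69784411, plus strand), was scarce everywhere, at most 15.8 CPM in any library. CD8 T cells held 1.82 to 15.0 CPM with a median of 3.44 in tumor, against 7.92 to 15.8 CPM with a median of 10.2 in spleen. All tumor libraries but 1 lay below the spleen range, and the exception was the highest tumor value, 3-month library 4. The log2 fold change was -0.91 (SE 0.35, adjusted p = 0.0413, edgeR), and it missed the threshold in 10 of 16 fits that left out a library, with values from -1.504 to -0.76 over the 16. Regulatory T cells held 4.41 to 15.4 CPM in tumor against 3.09 to 9.01 CPM in spleen, overlapping ranges. Their log2 fold change was 0.74 (SE 0.28, adjusted p = 0.0302, edgeR), a call lost in 6 of 16 such fits and with unscaled library totals (0.51, adjusted p = 0.123, edgeR). Conventional CD4 cells held 4.24 to 11.7 CPM in tumor against 4.79 to 8.89 CPM in spleen and did not pass (log2 fold change 0.76, SE 0.38, adjusted p = 0.138, edgeR). Its tumor difference in CD8 T cells was 1.66 below that in conventional CD4 cells (log2 -1.66, SE 0.49, adjusted p = 0.0374, edgeR), a call lost in 14 of 45 fits that left out a library. Myeloid libraries held at most 6.68 CPM, and 4 of them had no read, which allows up to 0.469 to 0.811 CPM.

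Tnfrsf1a, the receptor of TNF on chromosome 6 (125349362 to 125362484, plus strand), was a myeloid transcript that rose in tumor dendritic cells. These held 150.5 to 196 CPM with a median of 158 in tumor, against 44.6 to 78.0 CPM with a median of 55.4 in spleen. The ranges stood apart, and the log2 fold change was 1.85 (SE 0.10, adjusted p = 5.243e-09, edgeR). Without the 2 tumor dendritic cell libraries richest in macrophage genes the call stood. The tumor libraries left still held 3454 to 6892 CPM of these genes, against 738 to 994 CPM in spleen dendritic cells. The part of macrophage genes in this rise was therefore not tested. The macrophage sort, which had the highest levels, held 193 to 293 CPM in tumor against 245 to 370.0 CPM in spleen. It did not pass (log2 fold change -0.17, adjusted p = 0.241, edgeR), but with unscaled library totals Tnfrsf1a fell there (-0.39, adjusted p = 0.00529, edgeR). The part of the neutrophil genes of its spleen libraries was not tested. Regulatory T cells held 24.8 to 52.7 CPM in tumor against 21.5 to 33.1 CPM in spleen, ranges that overlapped through the lowest tumor library alone (log2 fold change 0.77, SE 0.14, adjusted p = 0.000129, edgeR). In CD8 and conventional CD4 cells the log2 fold changes of 0.19 (adjusted p = 0.378) and -0.45 (adjusted p = 0.218, edgeR) did not pass. The tumor difference of regulatory T cells exceeded that of conventional CD4 cells by 1.25 (SE 0.28, adjusted p = 0.00138, edgeR). The genes most like it over the 20 groups were Ppp1r3d (r = 0.987), Emilin2 (0.986) and Ly6i (0.985).

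Cflar, the caspase-8 decoy on chromosome 1 (58711508 to 58758884, plus strand), varied least of the 8 genes, with a ratio of 3.61 between the highest and the lowest group mean. Regulatory T cells of the tumor held the most, 266 to 423 CPM with a median of 353, against 200.4 to 243 CPM with a median of 231 in spleen. No tumor library fell within the spleen range, and the log2 fold change was 0.87 (SE 0.09, adjusted p = 9.588e-08, edgeR). Macrophages held 131 to 271 CPM in tumor against 98.4 to 178 CPM in spleen, overlapping ranges (log2 fold change 0.65, SE 0.17, adjusted p = 0.00323, edgeR). Conventional CD4 cells held 188 to 293 CPM in tumor against 172.5 to 214 CPM in spleen, and their log2 fold change of 0.41 (SE 0.14, adjusted p = 0.0299, edgeR) was lost in 6 of 13 fits that left out a library. The tumor difference of regulatory T cells exceeded that of conventional CD4 cells by 0.51 (SE 0.16, adjusted p = 0.0276, edgeR), a call lost in 9 of 45 such fits and with unscaled library totals (0.27, adjusted p = 0.264, edgeR). CD8 T cells held 110.3 to 177 CPM in tumor against 109 to 155 CPM in spleen (log2 fold change 0.24, SE 0.10, adjusted p = 0.0648, edgeR), which did not pass. Dendritic cells held 86.6 to 122 CPM in tumor against 106 to 137 CPM in spleen. Their CPM were on average lower in tumor, 109 ± 11.8 against 119 ± 14.1 (SD, n = 7 and 6), while the scaled log2 fold change was 0.20 (adjusted p = 0.1, edgeR), so no direction is given. The trimmed-mean scaling behind the fold changes moved the median gene of that comparison by 0.316 relative to unscaled totals.

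Bcl2, the survival gene on chromosome 1 (106538178 to 106714274, minus strand), fell to a few CPM in tumor regulatory T cells. The tumor libraries held 3.44, 2.64, 3.88 and 10.7 CPM in 12-month mice and 6.58, 4.88, 0.834 and 15.9 CPM in 3-month mice. The spleen libraries held 518, 569, 621 and 557.5 CPM in 12-month mice and 659, 699.9, 704 and 531 CPM in 3-month mice. The highest tumor value was far below the lowest spleen value. The log2 fold change was -6.49 (SE 0.37, adjusted p = 6.105e-10, edgeR), and it stayed between -6.87 and -6.30 in 16 fits that each left out a library. Tumor regulatory T cells also had a lower ribosomal share and a higher sum of neutrophil genes. Of that list S100a8, Retnlg and Camp were at 0 in all 3-month tumor libraries of the sort, and Cxcr2 in all 12-month ones. The part of either sign in this and the other tumor differences of the sort was not tested.

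No other T cell type showed a change of that size in Bcl2. Conventional CD4 cells held 122 to 639.7 CPM with a median of 333 in tumor, against 517 to 737 CPM with a median of 597.5 in spleen, overlapping ranges and log2 fold change -0.94 (SE 0.19, adjusted p = 0.000540, edgeR). CD8 T cells held 384 to 1411 CPM with a median of 742 in tumor, against 793 to 1027 CPM with a median of 925 in spleen, again overlapping (log2 fold change -0.13, adjusted p = 0.660, edgeR). The tumor difference was deeper in regulatory than in conventional CD4 cells by 5.50 (log2 -5.50, SE 0.43, adjusted p = 1.314e-11, edgeR). Within the tumor, Bcl2 of regulatory T cells was lower than that of conventional CD4 cells (log2 fold change -5.71, SE 0.42, adjusted p = 1.419e-11, edgeR), and within the spleen it did not pass (-0.17, SE 0.16, adjusted p = 0.407, edgeR). In the tumor conventional CD4 sort Bcl2 was 349, 318, 573 and 639.7 CPM in 12-month mice and 122 and 271 CPM in 3-month mice, where the 4 regulatory T cell genes summed to 1458, 1731, 1026 and 1810 CPM and to 2580 and 2253 CPM. The 3-month group had less Bcl2 and more of these transcripts, but among the 12-month libraries number 4 had the most of both. The part of regulatory T cells within that sort was not tested. In bulk samples of this kind, fewer cells that express a gene and less RNA of it per cell cannot be told apart.

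Among myeloid cells Bcl2 fell in tumor macrophages, which held 8.31 to 19.8 CPM with a median of 15.2, against 50.3 to 144 CPM with a median of 77.6 in spleen macrophages. The ranges did not overlap (log2 fold change -2.36, SE 0.22, adjusted p = 2.509e-08, edgeR). B cell genes, 8 in the list, summed to 6.76 to 33.3 CPM in tumor against 846 to 2965 CPM in spleen macrophages, and their part, like that of the neutrophil genes, was not tested. Dendritic cells held 42.0 to 102 CPM in tumor against 37.8 to 136.5 CPM in spleen and did not pass (log2 fold change -0.02, adjusted p = 0.956, edgeR). The genes most similar to Bcl2 over the 20 groups were Tcf7 (r = 0.949), a transcription factor of naive and memory T cells, Snhg1 (0.936) and Bach2 (0.933), a repressor that restrains T cell differentiation.

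**Figure D3:**
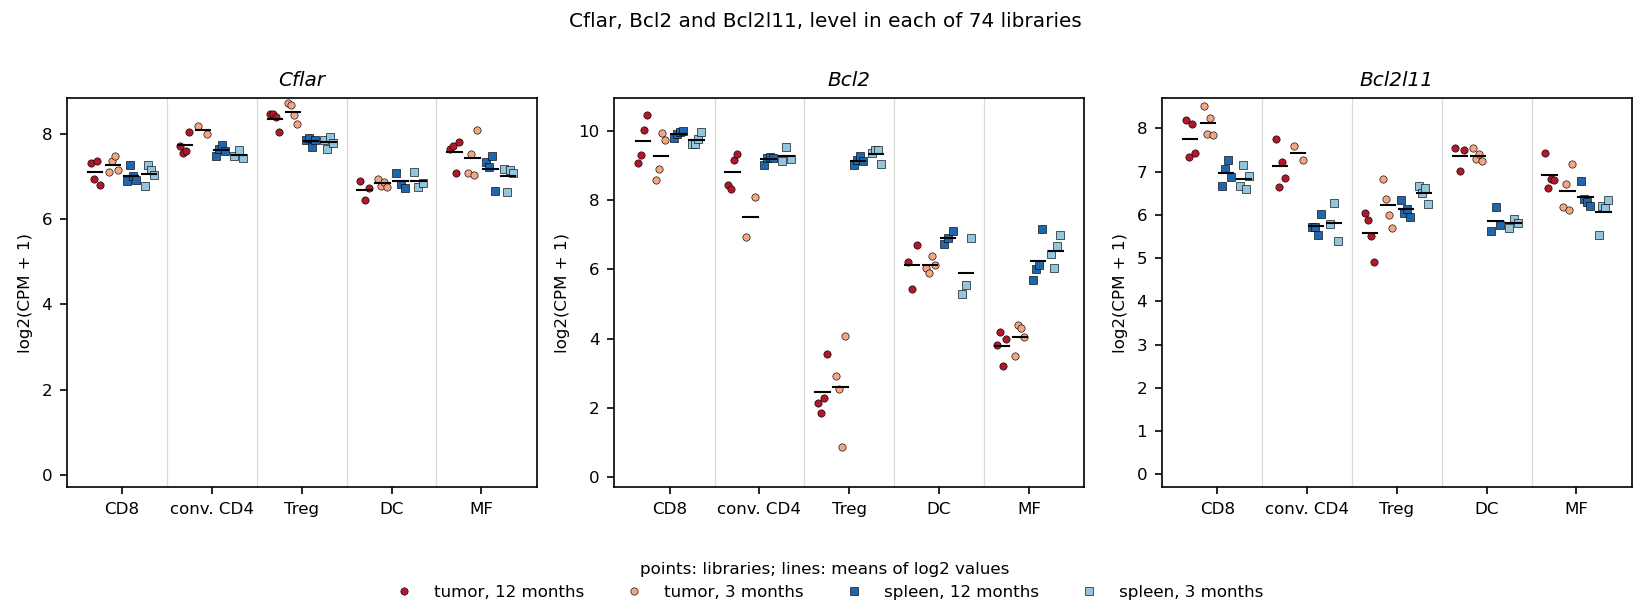
Levels of Cflar, Bcl2 and Bcl2l11 as log2(CPM + 1) in each of 74 libraries, by cell type, with tumor left of spleen and 12 months left of 3 months; short lines are means of the log2 values. The 8 tumor regulatory T cell libraries lie at 0.834 to 15.9 CPM of Bcl2, apart from all other T cell libraries, and the group means of Cflar stay within a ratio of 3.61.

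Bcl2l11, which encodes the BCL-2 antagonist BIM on chromosome 2 (128126038 to 128162547, plus strand), rose in every cell type but regulatory T cells. CD8 T cells held 160 to 364 CPM with a median of 251 in tumor, against 95.8 to 154 CPM with a median of 118 in spleen (log2 fold change 1.15, SE 0.13, adjusted p = 3.006e-07, edgeR). Conventional CD4 cells held 99.2 to 215 CPM with a median of 151 in tumor, against 41.1 to 76.2 CPM with a median of 51.6 in spleen (log2 fold change 1.57, SE 0.18, adjusted p = 1.454e-07, edgeR). In both, the tumor libraries lay above all spleen libraries. Dendritic cells did the same, with 129 to 186 CPM and a median of 167 in tumor and 48.6 to 71.6 CPM and a median of 54.4 in spleen (log2 fold change 1.86, SE 0.13, adjusted p = 6.274e-08, edgeR). Macrophages overlapped, with 67.8 to 170.0 CPM in tumor against 45.0 to 109 CPM in spleen (log2 fold change 0.73, SE 0.18, adjusted p = 0.00172, edgeR). Regulatory T cells held 29.0 to 112 CPM in tumor against 60.9 to 100.6 CPM in spleen and did not pass (log2 fold change -0.12, adjusted p = 0.565, edgeR), and their tumor difference was 1.64 below that of conventional CD4 cells (log2 -1.64, SE 0.25, adjusted p = 4.142e-06, edgeR). The pattern of Bcl2l11 over the 20 groups had no close match: its nearest genes were Atf1 (r = 0.816), Chst11 (0.778) and Gzmf (0.770).

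The log2 ratio of Bcl2l11 to Bcl2 counts, with 1 added to each, moved up in tumor libraries of all 5 types, a description without a test. Its size depends on the lengths of both transcripts, so only its shift between groups is read. It averaged 3.63 ± 1.48 in tumor and -2.94 ± 0.2 in spleen regulatory T cells (SD, n = 8 each), with 1.42 as the lowest tumor and -2.69 as the highest spleen value. It averaged -1.57 ± 0.889 in tumor and -2.95 ± 0.242 in spleen CD8 T cells (SD, n = 8 each), and -1.16 ± 1.11 in tumor and -3.46 ± 0.231 in spleen conventional CD4 cells (SD, n = 6 and 7). Of the pair, only Bcl2 was called in regulatory T cells and only Bcl2l11 in CD8 T cells. Dendritic cells averaged 1.26 ± 0.288 in tumor and -0.587 ± 0.782 in spleen (SD, n = 7 and 6), and macrophages 2.87 ± 0.648 in tumor and -0.162 ± 0.733 in spleen (SD, n = 8 each).

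**Figure D4:**
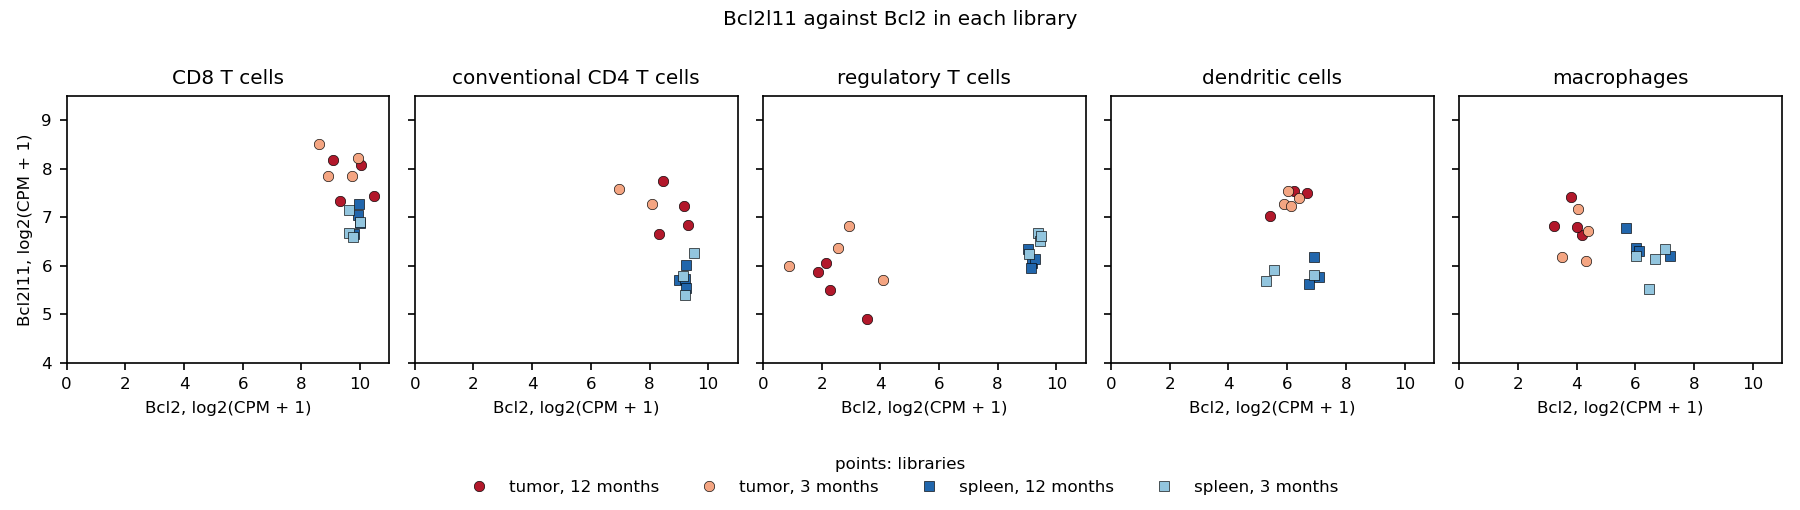
Bcl2l11 against Bcl2, both as log2(CPM + 1), with a point for each library and a panel for each cell type. Tumor regulatory T cells lie far left of their spleen libraries at similar Bcl2l11, tumor dendritic cells lie above theirs at similar Bcl2, and tumor macrophages lie left of theirs.

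Between cell types within a tissue, T cell libraries were set against myeloid libraries. In the tumor 6 of 8 members were higher and 2 lower in T cells, where 34.9% of 17787 genes were higher and 29.3% lower (64.2% in all). In the spleen 6 of 8 were higher and 1 lower, where 29.3% of 16484 genes were higher and 30.7% lower (60.1% in all). In the tumor T cells exceeded myeloid cells by 5.59 (SE 0.48) for Fasl, 3.32 (SE 0.43) for Tnfrsf10b, 2.20 (SE 0.18) for Tnfsf10 and 1.41 (SE 0.26) for Bcl2 on the log2 scale, with adjusted p from edgeR of 4.103e-11, 1.341e-08, 9.241e-13 and 2.896e-05. In the spleen the same genes gave 1.83 (SE 0.37), 2.15 (SE 0.36), 2.42 (SE 0.22) and 2.67 (SE 0.14), with adjusted p of 4.936e-05, 2.271e-06, 2.831e-12 and 6.704e-19. Tnfrsf1a was the other way round, at -3.15 (SE 0.11) in tumor and -2.43 (SE 0.09) in spleen, with adjusted p of 9.989e-24 and 4.409e-24 from edgeR. All these values are means over the cell types of each side. Tumor Bcl2 averaged 790.5 CPM in CD8 and 378.6 CPM in conventional CD4 cells but 6.11 CPM in regulatory T cells. It averaged 70.6 CPM in tumor dendritic cells and 14.7 CPM in tumor macrophages, so regulatory T cells did not share the difference. Fas was 0.65 and 0.31 higher and Cflar 0.37 and 0.33 higher in T cells of tumor and spleen (adjusted p of 0.0110, 0.00721, 0.00152 and 0.000317, edgeR). Not every T cell type shared this. Spleen Fas averaged 71.85 CPM in macrophages, against 57.0 in CD8, 72.2 in conventional CD4 and 119 in regulatory T cells. Cflar averaged more in macrophages than in CD8 T cells, 186.9 against 146.9 CPM in tumor and 138.5 against 131.9 CPM in spleen. Conventional CD4 and regulatory T cells averaged more Cflar CPM than either myeloid sort. The Fas calls were lost in tumor without the dendritic cell libraries rich in macrophage genes (0.60, adjusted p = 0.0513, edgeR) and in spleen without the ribosome-rich pair (0.23, adjusted p = 0.0603, edgeR). For Bcl2l11 the tumor value of -0.32 (adjusted p = 0.0425, edgeR) had no stable direction, since unscaled totals turned it to 0.05 (adjusted p = 0.79, edgeR).

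Regulatory T cells were also set against conventional CD4 cells. The mitochondrial share separated these sorts in both tissues, at 0.865% to 2.01% against 5.06% to 10.9%. That difference cannot be told apart from cell type, and its part was not tested. In the tumor 2 of 8 members were higher and 3 lower, against 19.1% and 20.8% of all genes (39.9% in all). In the spleen 3 of 8 were higher and 1 lower, against 24.7% and 21.1% (45.8% in all). Beside Bcl2, regulatory T cells of the tumor had less Fasl (log2 fold change -1.81, SE 0.48, adjusted p = 0.00343, edgeR) and less Bcl2l11 (-1.34, SE 0.21, adjusted p = 4.098e-06, edgeR), and more Tnfrsf1a (0.97, SE 0.18, adjusted p = 4.968e-05, edgeR) and Cflar (0.53, SE 0.15, adjusted p = 0.00512, edgeR). In the spleen they had less Fasl (-2.65, SE 0.46, adjusted p = 1.02e-05, edgeR) and more Fas (0.55, SE 0.14, adjusted p = 0.00105, edgeR) and Tnfsf10 (1.03, SE 0.26, adjusted p = 0.00135, edgeR). Bcl2l11 in spleen, at 0.35 (adjusted p = 0.0369, edgeR), was lost in 15 of 37 fits that left out a library. Without the ribosome-rich spleen pair 2 of the 4 spleen calls were left, as Tnfsf10 (0.83, adjusted p = 0.0764, edgeR) and Bcl2l11 (0.17, adjusted p = 0.523, edgeR) missed the threshold.

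CD8 and conventional CD4 cells, whose mitochondrial shares overlapped, were closer. In the tumor 2 of 8 members were higher and 1 lower, against 6.35% and 6.45% of all genes (12.8% in all). In the spleen 3 of 8 were higher and 1 lower, against 6.15% and 6.27% (12.4% in all). CD8 cells had less Cflar in both tissues (log2 fold change -0.65, SE 0.15, adjusted p = 0.00264 in tumor, and -0.48, SE 0.10, adjusted p = 0.00133 in spleen, edgeR). They had more Bcl2l11 (0.74, SE 0.22, adjusted p = 0.0217 in tumor, and 1.17, SE 0.14, adjusted p = 4.971e-08 in spleen, edgeR) and more Bcl2 (1.45, SE 0.38, adjusted p = 0.0106 in tumor, and 0.65, SE 0.16, adjusted p = 0.00528 in spleen, edgeR). The tumor calls of Bcl2 and Bcl2l11 were lost without 3-month tumor conventional CD4 library 1 (1.25, adjusted p = 0.112, and 0.86, adjusted p = 0.0576, edgeR), and the Bcl2l11 call without library 3 of that group as well (0.67, adjusted p = 0.148, edgeR). The spleen call of Bcl2 was lost without the ribosome-rich pair (0.59, adjusted p = 0.168, edgeR), as was that of Tnfsf10 (0.77, adjusted p = 0.0467, and 0.61, adjusted p = 0.435 without the pair, edgeR). The Tnfsf10 call was also lost in 20 of 37 fits that left out a library, with DESeq2's size factors and with unscaled library totals.

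Ordered by mean CPM over the 20 groups, most neighbouring groups overlapped in their libraries. Of 19 neighbouring pairs per gene, 2 stood apart for Fasl, between tumor CD8 and tumor conventional CD4 cells and between tumor conventional CD4 cells and tumor regulatory T cells. For Tnfsf10, Tnfrsf1a and Bcl2 also 2 pairs stood apart, for Cflar 1, and for Fas, Tnfrsf10b and Bcl2l11 none. The highest group mean exceeded the lowest 16.5-fold for Tnfrsf1a, 8.76-fold for Fas and 5.73-fold for Bcl2l11. No such ratio is given for Fasl, Tnfrsf10b, Tnfsf10 and Bcl2, whose lowest groups averaged a few CPM or less, so that single libraries set it.

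Age was compared within each tissue, 12 against 3 months, and its effect was compared between tissues by an interaction term. Of the 8 genes only Fasl in CD8 T cells passed. In the spleen 1 of 37 tested pairs of gene and cell type was called and in the tumor 0 of 37, in edgeR's test. In spleen CD8 T cells, where 1.02% of 11677 genes were called (0.925% higher, 0.0942% lower), Fasl was 25.8, 32.3, 31.8 and 26.1 CPM in 12-month mice and 7.20, 6.01, 10.6 and 4.89 CPM in 3-month mice. The ages did not overlap, and the log2 fold change was 2.00 (SE 0.28, adjusted p = 0.000175, edgeR). The sum of the 5 NK cell genes moved with age in the same libraries, also without overlap. It was 177.8, 117.4, 136 and 93.1 CPM in 12-month mice and 77.9, 28.6, 46.1 and 52.6 CPM in 3-month mice. Of these genes Ncr1 was at 0 in all of these libraries, and the part of the sum in this call was not tested. In tumor CD8 T cells, where no gene of 11804 was called and 486 had an unadjusted p under 0.05 in edgeR, Fasl was 249, 308, 312 and 284 CPM in 12-month mice and 363, 374, 322 and 207 CPM in 3-month mice, overlapping values. The interaction, tumor minus spleen, was -2.08 (SE 0.27, adjusted p = 0.000275, edgeR), in a test that called 0.143% of 13285 genes (0.00753% higher, 0.135% lower). Fasl did not pass by age in spleen conventional CD4 cells, with 22.7, 20.6, 7.75 and 39.0 CPM in 12-month mice and 19.0, 33.2 and 24.4 CPM in 3-month mice (log2 fold change -0.35, SE 0.39, adjusted p = 0.689, edgeR).

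The other members with large age differences did not pass. Bcl2 in tumor conventional CD4 cells, whose values are given above, did not overlap between ages and gave 1.27 as log2 fold change (SE 0.37, adjusted p = 0.531, edgeR) from 4 and 2 libraries, in a comparison that called 0.0311% of 12882 genes (0.0155% in each direction). Its interaction was 1.52 (SE 0.38, adjusted p = 0.0624, edgeR), and 2.18 (adjusted p = 0.00814, edgeR) without 3-month tumor library 3, in a test that called 0.668% of genes (0.0273% higher, 0.641% lower). Tnfsf10 in spleen conventional CD4 cells was 34.7, 22.6, 35.3 and 39.7 CPM in 12-month mice and 13.9, 22.9 and 13.6 CPM in 3-month mice, overlapping by 1 library (log2 fold change 0.83, SE 0.30, adjusted p = 0.127, edgeR), where 3.92% of 11726 genes were called (1.96% in each direction). The 2 lowest of those 3-month libraries were the ribosome-rich pair, and with library 3 left out, so that only they remained, the call passed (1.05, adjusted p = 0.0259, edgeR).

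In spleen dendritic cells Fas was 37.4, 50.4 and 74.2 CPM in 12-month mice and 20.8, 22.9 and 38.0 CPM in 3-month mice, overlapping (log2 fold change 0.98, SE 0.25, adjusted p = 0.0898, edgeR), where 0.593% of 12650 genes were called (0.443% higher, 0.15% lower). Bcl2 was 106, 119 and 136.5 CPM in 12-month mice and 37.8, 45.8 and 119 CPM in 3-month mice there (log2 fold change 0.92, SE 0.36, adjusted p = 0.390, edgeR). Libraries 3 and 4 of these 3-month mice carry an age tag of 12 months, against their titles, and the titles were followed. Without them Bcl2 passed (1.52, adjusted p = 0.000112, edgeR), from the 1 library left, which is male and is assumed to vary like the others. B cell genes moved with age in these spleen libraries, summing to 2046, 3139 and 2604 CPM in 12-month mice and 553.9, 501 and 1653 CPM in 3-month mice, and their part in the Fas and Bcl2 values was not tested. In spleen regulatory T cells 0.0489% of genes were called, all higher, and in spleen macrophages none, with 736 at an unadjusted p under 0.05 in edgeR and no member among the called genes. In the tumor no member passed by age in any type, and the counts of genes at an unadjusted p under 0.05 in edgeR were 682 in conventional CD4, 461 in regulatory T cells, 158 in dendritic cells and 663 in macrophages.

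**Figure D5:**
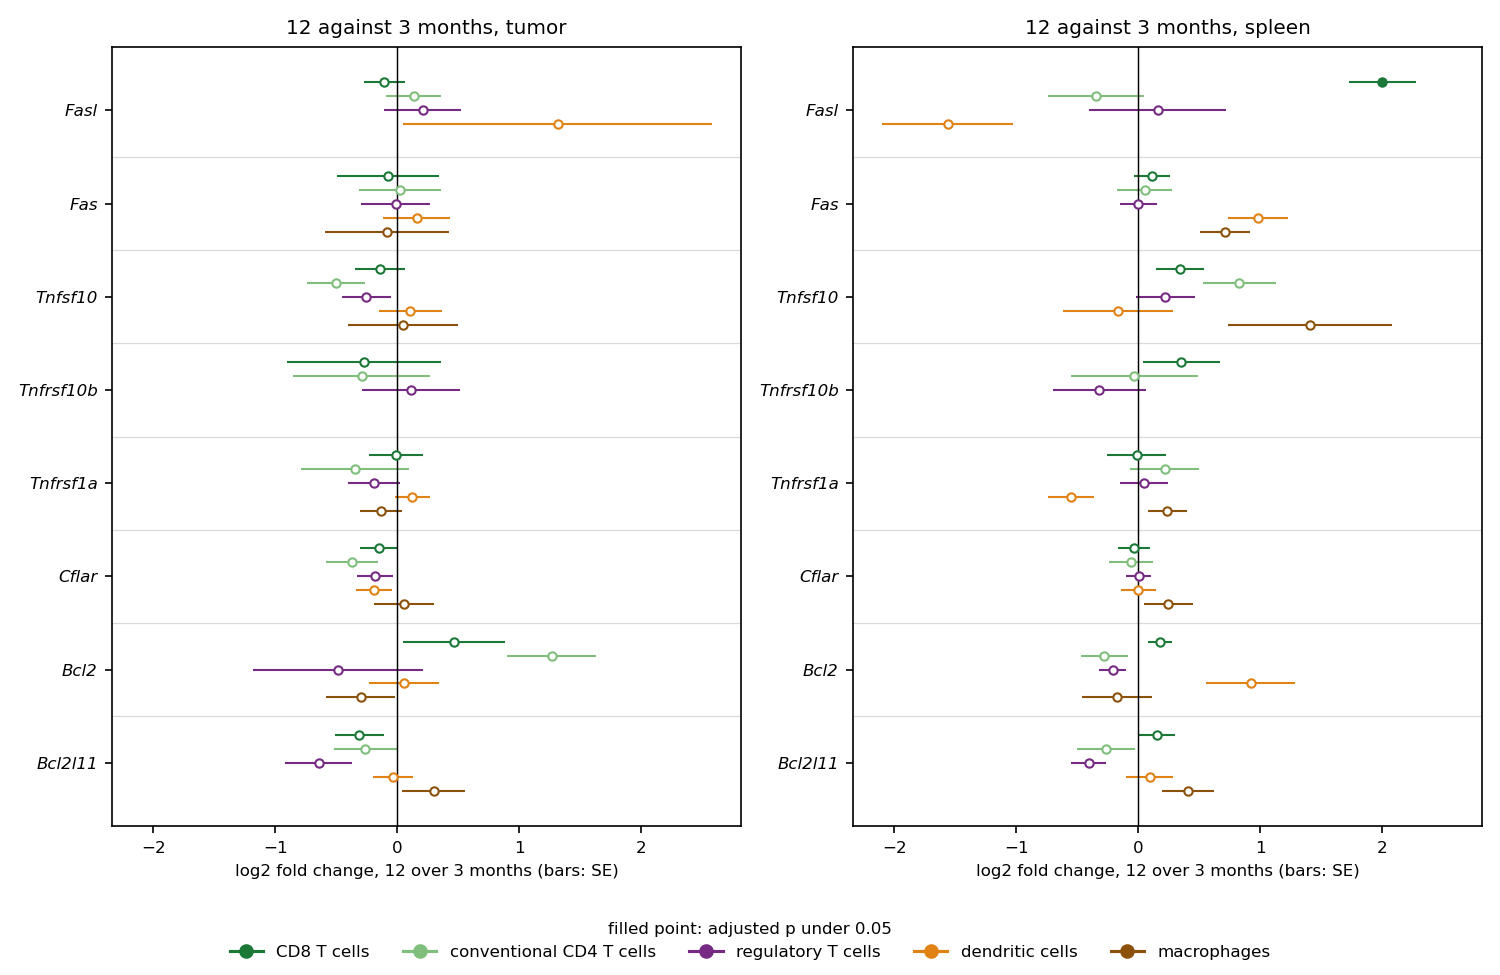
Log2 fold change of 12 over 3 months for the 8 genes in tumor and in spleen, by cell type, with standard errors as bars; filled points passed an adjusted p of 0.05. The single filled point is Fasl in spleen CD8 T cells at 2.00; untested pairs have no point.

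Of 47 further genes of the pathway, in 5 lists, most that were called rose in tumor T cells and dendritic cells. In CD8 T cells 22 of 43 tested rose and 4 fell, in conventional CD4 cells 15 of 44 rose and 1 fell, and in regulatory T cells 23 of 40 rose and 6 fell. In dendritic cells 23 of 44 rose and 7 fell, and in macrophages 16 of 44 rose and 10 fell. Over all genes tested 22.5% rose and 19.6% fell in CD8, 16% and 11.2% in conventional CD4, 25.9% and 27.6% in regulatory T cells, 24% and 23.3% in dendritic cells, and 23.9% and 27.8% in macrophages. The macrophage count in both directions was near the 51.7% of all genes and says nothing particular about the pathway. The 5 lists below hold few genes each, and their counts are to be read against these shares. The median log2 fold changes of the tested pathway genes were 0.43, 0.50, 0.53, 0.71 and 0.20 in the same order of cell types, beside the medians over all genes given above.

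Among survival genes of the BCL-2 family other than Bcl2, Mcl1 in regulatory T cells was the only call downward. Of those tested, 4 of 5 rose in CD8, 4 of 6 in conventional CD4 and 3 of 5 in regulatory T cells, and 4 of 6 rose in dendritic cells and 4 of 6 in macrophages. Bcl2l1, which encodes BCL-XL, averaged 296 ± 30.9 CPM in tumor and 105 ± 15.4 CPM in spleen regulatory T cells (SD, n = 8 each), log2 fold change 1.73 (SE 0.10, adjusted p = 1.33e-11, edgeR). In macrophages it averaged 309 ± 49.1 CPM in tumor and 34.5 ± 10.2 CPM in spleen (SD, n = 8 each), log2 fold change 3.39 (SE 0.16, adjusted p = 4.307e-12, edgeR). Bcl2l1 also rose in dendritic cells (log2 fold change 3.35, adjusted p = 4.359e-06), conventional CD4 (2.54, adjusted p = 1.901e-11) and CD8 T cells (1.48, adjusted p = 5.555e-08, edgeR). So in regulatory T cells, conventional CD4 cells and macrophages Bcl2 fell while Bcl2l1 rose. The Bcl2a1 genes, of which Bcl2a1b rose by 3.20 (log2) in CD8 T cells, are near-identical copies whose counts are uncertain. Mcl1 rose in dendritic cells to 615 ± 76.0 CPM in tumor, against 229 ± 21.5 CPM in spleen (SD, n = 7 and 6; log2 fold change 1.72, adjusted p = 1.597e-08, edgeR).

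Among the genes of the death complex and the caspases, 7 of 15 rose in CD8, 4 of 15 in conventional CD4 and 10 of 15 in regulatory T cells, 8 of 15 in dendritic cells and 5 of 15 in macrophages. With the genes that fell, the conventional CD4 count was level with the 27.2% of all genes called, and the macrophage count was below the 51.7%. Those that fell, named after their values were seen, were Casp6 in CD8, Diablo in regulatory T cells, Traf2, Bid and Diablo in dendritic cells, and Bid in macrophages. Mlkl, the effector of necroptosis, rose in all 5 types, by 4.05 in CD8, 3.63 in regulatory T cells, 5.59 in dendritic cells and 2.64 in macrophages on the log2 scale, and was among the 4 that rose in conventional CD4 cells. Casp8 itself rose in CD8 and regulatory T cells, dendritic cells and macrophages, in the last by 1.35 (SE 0.13, adjusted p = 3.854e-08, edgeR).

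Of 7 inhibitors of death signaling, 5 rose in each T cell type and none fell, where 22.5%, 16% and 25.9% of all genes rose in CD8, conventional CD4 and regulatory T cells. In dendritic cells 2 rose and 3 fell, and in macrophages 3 rose and 3 fell, the falling genes being Cyld, Birc3 and Xiap in both, where 47.3% and 51.7% of all genes were called. Tnfaip3, which encodes the NF-kB brake A20, averaged 867.5 ± 186 CPM in tumor and 105 ± 24.9 CPM in spleen CD8 T cells (SD, n = 8 each; log2 fold change 3.13, adjusted p = 4.096e-12, edgeR). Serpinb9, the inhibitor of granzyme B, averaged 309.7 ± 74.3 CPM in tumor and 44.7 ± 11.9 CPM in spleen CD8 T cells (SD, n = 8 each; log2 fold change 2.89, adjusted p = 8.291e-13, edgeR).

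Of 10 other ligands and receptors of the family, 4 of 9 tested rose and 2 fell in CD8, 1 of 8 rose and 1 fell in conventional CD4, and 2 of 8 rose and 4 fell in regulatory T cells. All 10 were tested in the myeloid cells, where 6 rose and 1 fell in dendritic cells and 3 rose and 4 fell in macrophages. The conventional CD4 count was near the 27.2% of all genes called there. Tnfrsf1b, the second TNF receptor, averaged 1312 ± 304 CPM in tumor and 306 ± 60.9 CPM in spleen regulatory T cells (SD, n = 8 each; log2 fold change 2.35, adjusted p = 9.13e-11, edgeR). Tnf rose in CD8 T cells, with 63.2 ± 20.8 CPM in tumor and 11.7 ± 3.12 CPM in spleen (SD, n = 8 each; 2.52, adjusted p = 4.483e-10, edgeR). Tnfrsf22, a decoy TRAIL receptor in mice, averaged 4.93 ± 3.55 CPM in tumor and 16.9 ± 5.28 CPM in spleen CD8 T cells (SD, n = 8 each; log2 fold change -1.76, adjusted p = 1.745e-05, edgeR), and it fell in conventional CD4 and regulatory T cells too. Tnfrsf12a rose in dendritic cells by 5.06 (SE 0.43, adjusted p = 4.507e-07, edgeR) and in macrophages by 2.39 (SE 0.24, adjusted p = 9.578e-08, edgeR).

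Of 9 pro-apoptotic BCL-2 family genes, 2 of 7 tested rose and 1 fell in CD8, 1 of 8 rose in conventional CD4 and 3 of 5 rose in regulatory T cells. In dendritic cells 3 of 6 rose, and in macrophages 1 of 6 rose and 2 fell. The shares called in CD8 and regulatory T cells were near the 42.1% and 53.5% of all genes. Those in dendritic cells and macrophages were near 47.3% and 51.7%, and the conventional CD4 share was below 27.2%. The BH3-only gene Pmaip1 (NOXA) rose in all 3 T cell types and fell in macrophages. The others that rose, named after their values were seen, were Bad in CD8, Bad and Bak1 in regulatory T cells, Bax, Bak1 and Bad in dendritic cells and Bax in macrophages. Pmaip1 averaged 57.2 ± 4.47 CPM in tumor and 7.62 ± 6.41 CPM in spleen conventional CD4 cells (SD, n = 6 and 7, log2 fold change 3.92, adjusted p = 3.771e-11, edgeR). In macrophages Pmaip1 averaged 65.7 ± 22.4 CPM in tumor and 219 ± 56.0 CPM in spleen (SD, n = 8 each, log2 fold change -1.52, adjusted p = 4.562e-06, edgeR). Bbc3 (PUMA) fell in CD8 T cells (log2 fold change -2.09, adjusted p = 0.00116) and macrophages (-1.45, adjusted p = 0.000222, edgeR). By age, the pathway genes called were all in conventional CD4 cells of the spleen. Tnfrsf1b averaged 127 ± 16.8 CPM in 12-month and 42.7 ± 20.8 CPM in 3-month mice (SD, n = 4 and 3; log2 fold change 1.43, adjusted p = 0.00629, edgeR), and Pmaip1 averaged 12.5 ± 2.79 CPM in 12-month and 1.15 ± 1.23 CPM in 3-month mice (3.26, adjusted p = 0.0153, edgeR), the younger value from 13 reads over 3 libraries. The interaction, tumor minus spleen, was also called for both, at -2.18 for Tnfrsf1b and -3.13 for Pmaip1 (adjusted p of 0.00118 and 0.00524, edgeR). In that sort the 4 regulatory T cell genes summed to 855 to 1176 CPM in 12-month and 188 to 592 CPM in 3-month mice and 2 of the 3 younger libraries were the ribosome-rich pair, and their part in these calls was not tested.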

How the data were processed

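Raw read counts per gene were deposited as whole numbers by the authors, who aligned reads with STAR 2.5.3 to mm10 and counted them with featureCounts, per the submitters' processing notes. For the annotation release, the use of strand and reads that map to several places, the setting is not given in the sources used here. The 74 libraries were grouped by title, 2 of them with an age tag that disagrees. The 8 members and all gene lists were chosen with earlier results of these data known. CPM were computed from library totals of 1652812 to 9115858 counts. Tests used edgeR 4.0.16 (limma 3.58.1, R 4.3.3): filterByExpr, trimmed-mean (TMM) scaling, quasi-likelihood fits with robust dispersion, and Benjamini-Hochberg adjustment over all genes tested at 0.05. Tumor against spleen and the interaction used the 4 groups of a cell type, age the 2 groups of a tissue, and dendritic cell fits had sex as a covariate. Named pathway genes were up to 3 per list with the smallest adjusted p past the threshold, and 3 genes per member were named by likeness. Alternatives were DESeq2 1.42.0, its size factors, no low-count filter, a replicate block, each library left out, and choices made after seeing the data. Counts were also simulated with the same fixed spread for every gene, not the spread of these libraries. The shares recovered therefore do not give the power of the tests on the real data. For CD8 tumor against spleen, over 12871 genes, 70.2% of genes changed by 1 on the log2 scale and 97.2% of those changed by 2 were recovered. For 12 against 3 months in spleen CD8 T cells, over 11908 genes, these shares were 27.1% and 97.1%, so most simulated age differences of 1 were missed. For regulatory against conventional CD4 T cells of the tumor, over 14594 genes, they were 36.4% and 87.1%. Unchanged genes called were 13, 4 and 7 in the same order. No 2 of 103 replicate pairs were identical. Replicate numbers were taken to pair libraries where every same-numbered pair correlated above 0.1 in its deviations, over 3 or more pairs. This held between ages in tumor regulatory T cells (0.118 to 0.374, 4 pairs), where the block changed no member's call. In tumor CD8, spleen CD8 and spleen regulatory T cells every pair was positive too, but the lowest were 0.0773, 0.0222 and 0.0459. Not every gene that the naming rule picked is reported here. Intervals and limits from counts cover counting error only.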

Additional observations from a re-analysis of the deposited data

Results flagged for a closer look

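In 8 of the 120 sets of 4 libraries checked, 1 library lay far from the others of its group, where chance alone marks about 1 in 20. Fasl was 9.752 CPM in 12-month tumor macrophage library 2. Tnfsf10 was 74.82 CPM in 12-month spleen regulatory T cell library 4 and 59.64 CPM in 12-month tumor macrophage library 4. Tnfrsf10b was 15.03 CPM in 3-month tumor CD8 library 4 and 6.684 CPM in 12-month spleen macrophage library 3. Tnfrsf1a was 24.76 CPM and Bcl2 10.7 CPM in 12-month tumor regulatory T cell library 4, and Bcl2 was 516.9 CPM in 12-month spleen conventional CD4 library 1.

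Effects that differed between groups by a test of the difference (edgeR) were the age effect on Fasl in CD8 T cells, with an interaction of -2.084, and tumor effects set between T cell types. CD8 differed from conventional CD4 T cells by 1.548 for Fasl and -1.66 for Tnfrsf10b. Regulatory differed from conventional CD4 T cells by -1.049 for Fas, -0.923 for Tnfsf10, 1.254 for Tnfrsf1a, 0.512 for Cflar, -5.504 for Bcl2 and -1.644 for Bcl2l11. All are on the log2 scale.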

How the results depend on the processing

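Of 67 called member effects, 53 were called with every library left out in turn and 49 under every alternative run. Counts of members called moved as follows. Without the low-count filter 2 were called for the interaction in conventional CD4 cells, 1 by age in their tumor libraries and 2 by age in spleen dendritic cells, against 0 in each with the filter. DESeq2's Wald test called 1 for that interaction and 1 by age in spleen dendritic cells. With the replicate number as a block 1 was called by age in tumor conventional CD4 cells (Bcl2, 1.26, adjusted p = 5.124e-08, edgeR) and 1 in spleen dendritic cells (Fas, 1, adjusted p = 0.0371, edgeR), and the block changed no other member's call but that of Cflar in CD8 T cells (0.24, adjusted p = 0.0483, edgeR). The Bcl2 value rests on 2 shared numbers and 1 residual degree of freedom, and same-numbered libraries there correlated at only 0.026 and 0.0327, so it is not read as a call. In CD8 and regulatory T cells, within a tissue, all 8 libraries resembled most those of their own number, a hint from the data only. Without the spleen dendritic cell libraries of conflicting labels 1 was called (Bcl2). Without the ribosome-rich pair of spleen conventional CD4 libraries 2, 2 and 0 were called in regulatory against conventional CD4 cells of spleen, CD8 against conventional CD4 cells of spleen, and the difference in tumor effects between CD8 and conventional CD4 cells, against 4, 4 and 2 with them. Leaving out a library gave 0 to 2 for the conventional CD4 interaction, 0 to 1 for age in their spleen libraries, 0 to 2 for age in spleen dendritic cells, and 0 to 2 for CD8 minus conventional CD4 tumor effects. A fit that leaves 1 library in a group assumes that it varies like the others.

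Library totals without TMM scaling reversed Bcl2l11 between T and myeloid cells of the tumor (0.049, adjusted p = 0.79, edgeR). They shifted the median gene of tumor against spleen by -0.238 in regulatory T cells, -0.316 in dendritic cells and -0.211 in macrophages, and of T against myeloid cells by 0.365 in tumor and 0.197 in spleen. Higher and lower calls were then 2460 and 5291 in regulatory T cells, against 3452 and 3686 with TMM, 2153 and 5139 in dendritic cells, against 3355 and 3253, and 2153 and 4729 in macrophages, against 3073 and 3584. For T against myeloid cells they were 8672 and 3641 in tumor, against 6206 and 5206, and 6351 and 4289 in spleen, against 4837 and 5064. For CD8 against conventional CD4 cells of the tumor they were 781 and 1383, against 1129 and 1148, and for regulatory against conventional CD4 cells of the spleen 5099 and 2702, against 4077 and 3477. For tumor effects they were 375 and 436 for CD8 minus conventional CD4 cells, against 523 and 372, and 374 and 1643 for regulatory minus conventional CD4 cells, against 776 and 856. For age in spleen conventional CD4 cells they were 306 and 83, against 230 and 230. Low counts limit Tnfrsf10b in all cells and Fasl in myeloid cells.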
